A study of Rattus norvegicus with 3 samples.

Results

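The genes described here encode parts of the bone morphogenetic protein (BMP) and SMAD pathway and the Id proteins downstream of it. They are Id1, Id2, Id3 and Id4, the receptor genes Bmpr1a, Bmpr1b and Bmpr2, and Smad3, Smad6 and Smad7, listed by name, with earlier results of these data known. Every probe set that the platform annotation maps to 1 of these symbols alone was taken. This gave 20 probe sets for 9 of the 10 genes, out of 20832 probe sets for 14218 genes on the array. For Bmpr1b the annotation gave none, so it was not analysed here. Of the 20 probe sets, 11 were above the signal floor on all 3 arrays, 4 on some arrays and 5 on none.

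BMPs are secreted dimers that bring type I and type II serine/threonine kinase receptors together. The active type I receptor phosphorylates receptor-regulated Smads, which enter the nucleus with Smad4, and the inhibitory Smads act as feedback on this step. Id proteins are helix-loop-helix proteins without a DNA-binding region that hold E proteins and other partners off DNA, and their genes are known targets of BMP signals. In the ovarian follicle, BMPs of theca cells and the oocyte act on granulosa cells and are known to restrain luteinisation.

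RNA came from cultured granulosa cells that had been taken by follicle puncture from Sprague-Dawley rats. The rats were immature females aged 24 to 25 days and had received PMSG (pregnant mare's serum gonadotropin), which makes follicles grow, 48 h before. There were 3 groups: cells given an adenovirus carrying NFIL3 and then forskolin with phorbol 12-myristate 13-acetate (Ad-NFIL3 with FSK/PMA), cells given the green fluorescent protein virus and the same stimulus (Ad-GFP with FSK/PMA), and cells given the green fluorescent protein virus alone (Ad-GFP). All groups carried an adenovirus, at 50 pfu per cell for 2 h, and had been exposed to PMSG in the animal. FSK (10 uM) and PMA (20 nM), an adenylyl cyclase activator and a protein kinase C activator used in place of the ovulatory hormone, were added 24 h after infection for 6 h. NFIL3 is a basic leucine zipper factor known mainly as a repressor, and the cells also carry their own Nfil3 gene. The sources used here do not give the promoter that drives NFIL3 in the virus. Each group had 1 Affymetrix rat array, hybridised with RNA pooled from 3 experiments, so no p-value or error between cultures can be given.

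Signals are MAS5 intensities, and those under the floor of 126, the median of all signals, were set to it before log2 was taken. In these pools, fewer cells of a type and less RNA per cell cannot be told apart. Nfil3 had a signal of 5882 on the Ad-NFIL3 array with FSK/PMA, 1321 with Ad-GFP and FSK/PMA, and 564 with Ad-GFP. The highest signal was thus on the array labelled Ad-NFIL3. The labels do not give the order of the Ad-GFP arrays, which differed 2.34-fold. Of 10 granulosa cell markers, 9 were on the array, and each of the 9 was above the floor on at least 1 array; Cyp19a1 was under it with Ad-GFP. The median signal was between 115 and 136 on the 3 arrays. As a measure of technical spread, the brightest 2 probe sets of 1 gene differed from each other with a robust SD per difference of 0.33 on the log2 scale for the stimulus (2549 genes) and 0.23 for NFIL3 against GFP virus under FSK/PMA (2500 genes). Culture-to-culture differences are not part of this spread.

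The comparison of stimulated with unstimulated Ad-GFP cells asked how the stimulus moves these genes. Bmpr2, a type II BMP receptor, was 2.78-fold lower, and Smad7, an inhibitory Smad, was at least 2.13-fold lower. The Id genes and Bmpr1a stayed within 2-fold. With each gene read at its brightest probe set, 0 of 9 measured members were past 2-fold upward and 2 past 2-fold downward. The background was 7.43% of 9395 genes past 2-fold upward and 11.4% past 2-fold downward, or 9.01% and 8.97% with arrays scaled to their median. With a limit of 1.5-fold, 0 members were higher and 4 were lower (Bmpr2, Smad7, Smad6 and Smad3), beside 14.9% and 24.0% of all genes. The median log2 difference was -0.16 over the members and -0.10 over all measured genes. Smad6 and Smad7 passed the floor in this comparison only through the Ad-GFP array, so they could differ in no other direction, and the count and median are a description.

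The comparison of Ad-NFIL3 with Ad-GFP, both under FSK/PMA, asked which members differ when NFIL3 is overexpressed. No member was 2-fold different in either direction, among 8 measured, against 1.34% of 9397 genes at least 2-fold higher and 0.958% at least 2-fold lower. Scaled to their median, the arrays gave 0.514% of genes higher and 2.03% lower. The differences of the Id genes did not share a sign: Id3 and Id1 had log2 differences of -0.69 and -0.68, and Id2 one of 0.65. Smad7 had at least 0.62, and 0.90 with a floor at the 25th percentile of signals. With a limit of 1.5-fold, 2 members were higher (Id2 and Smad7) and 2 lower (Id1 and Id3), beside 6.81% and 4.25% of all genes. Smad7 passed the floor here only through the Ad-NFIL3 array, so it could only be higher. The median log2 difference was -0.15 over the members and 0.03 over all genes. Both comparisons use the Ad-GFP array with FSK/PMA, so an error on that array would enter them with opposite signs.

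**Figure D1:**
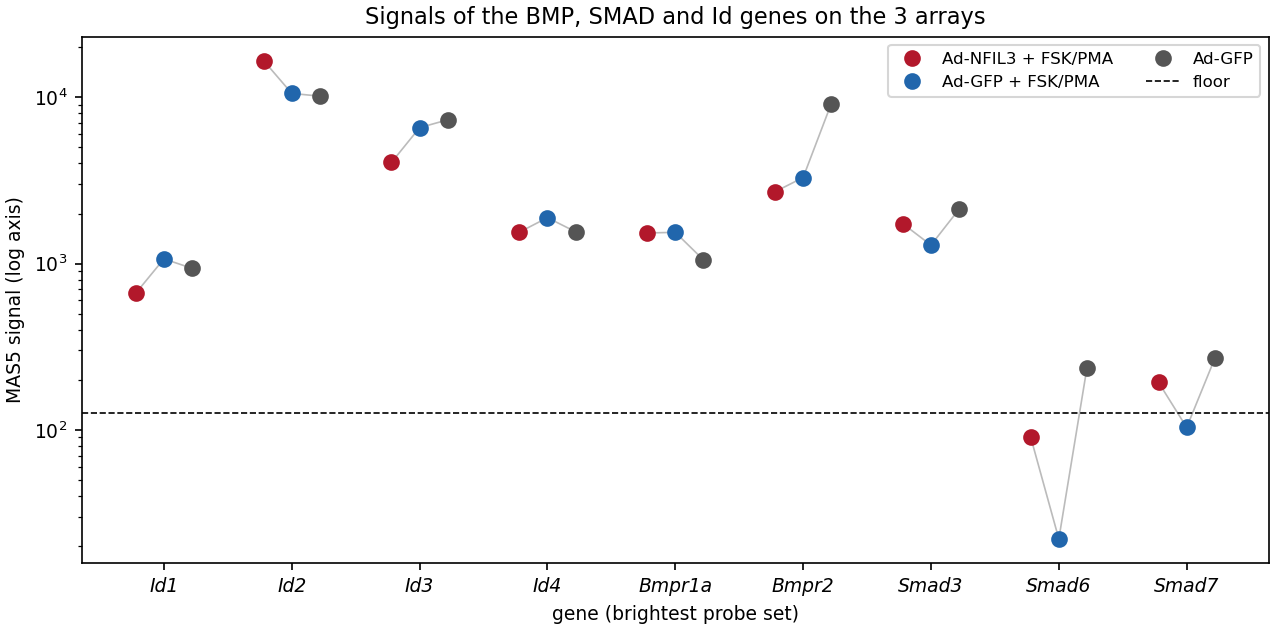
MAS5 signal on a log axis of the brightest probe set of each of the 9 genes, with 1 point per array (Ad-NFIL3 with FSK/PMA, Ad-GFP with FSK/PMA, Ad-GFP, left to right) and the floor of 126 as a dashed line. Bmpr2 is highest on the Ad-GFP array, at 9154, and Smad6 and Smad7 lie near or under the floor.

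Id1 encodes an Id protein that responds to BMPs in many cell types. Its single probe set (1387028_a_at) had signals of 663 with Ad-NFIL3 and FSK/PMA, 1066 with Ad-GFP and FSK/PMA, and 936 with Ad-GFP. The Ad-NFIL3 array was thus the lowest and both Ad-GFP arrays lay close together. The log2 difference was -0.68 for NFIL3, which is 1.61-fold and larger than 2 SD between probe sets (0.47), and 0.19 for FSK/PMA. Of all measured genes, 2.78% had a difference as low or lower in the NFIL3 comparison.

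Id3, the Id gene often read beside Id1 as a BMP response, showed the same order of the Ad-NFIL3 array against the other two. Its single probe set (1387769_a_at) had signals of 4057 with Ad-NFIL3 and FSK/PMA, 6565 with Ad-GFP and FSK/PMA, and 7322 with Ad-GFP. The log2 difference was -0.69 (1.62-fold) for NFIL3, with 2.66% of genes as low or lower, and -0.16 for FSK/PMA. Both differences of NFIL3, for Id1 and Id3, were under 2-fold. They kept their sign in all 8 settings that gave a value, from -0.92 to -0.68 for Id1 and from -0.93 to -0.59 for Id3.

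Id2, an Id protein that also binds the retinoblastoma protein, went the other way on the Ad-NFIL3 array. Its brighter probe set (1375532_at) had signals of 16604 with Ad-NFIL3 and FSK/PMA, 10555 with Ad-GFP and FSK/PMA, and 10153 with Ad-GFP. Its dimmer probe set (1368870_at) had signals of 4459 with Ad-NFIL3 and FSK/PMA, 2558 with Ad-GFP and FSK/PMA, and 5107 with Ad-GFP. For NFIL3 the probe sets gave log2 differences of 0.65 and 0.80, both positive and larger than 0.47, and the difference of the gene was positive in all 9 settings (0.42 to 0.73). For FSK/PMA they disagreed, with 0.06 at the brighter and -0.997 at the dimmer probe set, which was 1.996-fold lower and just under the 2-fold limit. The mean of both was -0.47, and the brighter probe set gave -0.17 with quantile normalisation and with cyclic loess, so the sign of the FSK/PMA difference of Id2 depends on the probe set and on the scaling.

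Id4, the Id gene with the most probe sets here, had 4 of them, all above the floor on every array. The brightest (1394022_at) had signals of 1544 with Ad-NFIL3 and FSK/PMA, 1888 with Ad-GFP and FSK/PMA, and 1553 with Ad-GFP. All 4 probe sets had a positive FSK/PMA difference, from 0.28 to 0.82 on the log2 scale, and all 4 had a negative NFIL3 difference, from -0.29 to -0.06. None reached 2-fold, and only 1 of the 8 differences, the 0.82 of 1375120_at with FSK/PMA, was past 2 SD between probe sets. Probe sets of 1 gene are not replicates of a condition.

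The promoters of Id1 and Id3, which had like differences on the Ad-NFIL3 array, are shown with that of Id2, which differed in the other direction. Each runs from 250 bases before to 50 bases after the RefSeq start site (build GRCr8), and the table of such promoters held 8 of the 10 genes. The windows are chr3:161671314-161671613 (plus strand) for Id1, chr5:153656041-153656340 (plus strand) for Id3 and chr6:47470946-47471245 (minus strand) for Id2. Capitals mark matches, on either strand, to the core of the TATA box, TATAA, or to the CCAAT box, CCAAT.
Id1: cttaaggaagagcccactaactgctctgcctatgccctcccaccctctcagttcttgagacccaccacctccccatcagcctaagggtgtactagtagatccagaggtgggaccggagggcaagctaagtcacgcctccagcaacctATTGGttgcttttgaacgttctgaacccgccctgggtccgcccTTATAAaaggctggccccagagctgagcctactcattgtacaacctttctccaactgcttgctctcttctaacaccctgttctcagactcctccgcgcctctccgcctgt
Id3: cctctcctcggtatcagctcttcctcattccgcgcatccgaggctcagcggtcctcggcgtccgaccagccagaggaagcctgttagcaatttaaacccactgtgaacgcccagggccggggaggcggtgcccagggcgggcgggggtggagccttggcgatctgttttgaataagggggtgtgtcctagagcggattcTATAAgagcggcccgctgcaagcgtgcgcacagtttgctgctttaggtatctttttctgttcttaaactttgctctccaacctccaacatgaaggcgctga
Id2: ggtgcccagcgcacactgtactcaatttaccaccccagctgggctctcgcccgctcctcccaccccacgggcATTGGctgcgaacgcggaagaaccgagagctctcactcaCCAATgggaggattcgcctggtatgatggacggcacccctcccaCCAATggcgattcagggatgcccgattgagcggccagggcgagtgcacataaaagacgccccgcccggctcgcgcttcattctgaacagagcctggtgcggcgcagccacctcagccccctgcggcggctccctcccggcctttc

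None of these 3 windows held the NFIL3 sites TTACGTAA and TTATGTAA, which occur in 0.12% and 0.893% of all 33469 promoters in the table. Nor did they hold the cAMP response element TGACGTCA (1.83% of promoters), its shorter form TGACG (21.2%), the AP-1 site TGACTCA (4.63%), the core of the BMP response element GGCGCC (11.0%) or the palindromic Smad box GTCTAGAC (0.197%). TGACG lies within TGACGTCA, and both strands were read for each. TATAA was found in the Id1 and Id3 windows and not in that of Id2, and 26.2% of promoters hold it. CCAAT, which 37.5% of promoters hold, was found in the Id1 window and at 3 places in that of Id2. The last 2 motifs were added after the promoters were read. These are matches of letters in a short window and say nothing of binding.

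Bmpr2 encodes a type II receptor of BMPs, which the oocyte factors GDF9 and BMP15 also use. Its bright probe set (1376843_at) had signals of 2703 with Ad-NFIL3 and FSK/PMA, 3292 with Ad-GFP and FSK/PMA, and 9154 with Ad-GFP. Both stimulated arrays lay well under the unstimulated one. The log2 difference with FSK/PMA was -1.48, over 4 SD between probe sets, and 4.6% of measured genes were as low or lower. It ranged from -1.63 to -1.34 over the settings. The NFIL3 difference was -0.28, within 2 SD. A second Bmpr2 probe set (1394667_at) had signals of 40.5 with Ad-NFIL3 and FSK/PMA, 31.6 with Ad-GFP and FSK/PMA, and 4.77 with Ad-GFP. It was under the floor on each array and gives no second reading.

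Bmpr1a, which encodes the type I receptor ALK3, did not share this pattern. Its single probe set (1368899_at) had signals of 1527 with Ad-NFIL3 and FSK/PMA, 1541 with Ad-GFP and FSK/PMA, and 1053 with Ad-GFP. The stimulated arrays were alike and both above the unstimulated one. The log2 difference was 0.55 with FSK/PMA, 1.46-fold and within 2 SD (0.66), and -0.01 with NFIL3. No test of the difference between Bmpr1a and Bmpr2 can be made with 1 array per group.

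Smad3 encodes a receptor-regulated Smad of the activin and TGF-beta branch. Its bright probe set (1389127_at) had signals of 1736 with Ad-NFIL3 and FSK/PMA, 1291 with Ad-GFP and FSK/PMA, and 2124 with Ad-GFP. The stimulated GFP array was the lowest and the Ad-NFIL3 array lay between the other two. The log2 difference was -0.72 (1.65-fold) with FSK/PMA, just past 2 SD, and 0.43 with NFIL3, within 2 SD. A dimmer probe set (1369528_at) was above the floor on the Ad-NFIL3 array only, at a signal of 130.

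Smad7, an inhibitory Smad that blocks both the BMP and the TGF-beta branch, was close to the floor. Its brightest probe set (1368896_at) had signals of 193 with Ad-NFIL3 and FSK/PMA, 103 with Ad-GFP and FSK/PMA, and 269 with Ad-GFP. It was at least 2.13-fold lower with FSK/PMA, and at least 1.53-fold higher on the Ad-NFIL3 array than with Ad-GFP and FSK/PMA, where it passed the floor through the Ad-NFIL3 array only. Cyclic loess gave -0.92 on the log2 scale for FSK/PMA, under the 2-fold limit, and a floor at the 75th percentile left the gene unmeasured. The other 2 Smad7 probe sets had signals between 28.4 and 117, all under the floor.

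Smad6, the inhibitory Smad that acts mainly on the BMP branch, was above the floor on the Ad-GFP array alone. Its brightest probe set (1394025_at) had signals of 90.3 with Ad-NFIL3 and FSK/PMA, 22.1 with Ad-GFP and FSK/PMA, and 236 with Ad-GFP, at least 1.87-fold lower with FSK/PMA. With a floor at the 25th percentile of signals, 46.2, the log2 difference was -2.35 and Smad6 passed 2-fold. Of its other 3 probe sets, 1375121_at had a signal of 139 on the Ad-GFP array and was under the floor on the others, and 2 were under it on every array. In the NFIL3 comparison Smad6 was not measured.

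The Smad7 promoter is shown as the member window with the most matches to GGCGCC, the core of the element that BMP-activated Smads bind. It lies at chr18:71263258-71263557 (plus strand) in GRCr8, and capitals mark the matches, whose first bases are at -96 and -36 from the start site.
Smad7: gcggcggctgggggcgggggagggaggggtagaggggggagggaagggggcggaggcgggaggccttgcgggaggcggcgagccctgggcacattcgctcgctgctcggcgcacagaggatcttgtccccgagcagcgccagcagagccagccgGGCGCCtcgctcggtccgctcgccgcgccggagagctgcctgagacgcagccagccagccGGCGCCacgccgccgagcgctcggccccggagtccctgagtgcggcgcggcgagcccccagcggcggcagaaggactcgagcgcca
The windows of Smad3 and Id4 held 1 match each, after the start site. Those of the other 5 members with a promoter held none, so 3 of 8 members had the motif, against 11.0% of all promoters. The motif holds only G and C, which made up 77.7% of the Smad7 window, 69.7% of that of Smad3 and 65.0% of that of Id4. In the windows without it their share ran from 30.0% (Bmpr1a) to 65.3% (Id2). The 11.0% was not matched for base content, and the part of base content was not tested.

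**Figure D2:**
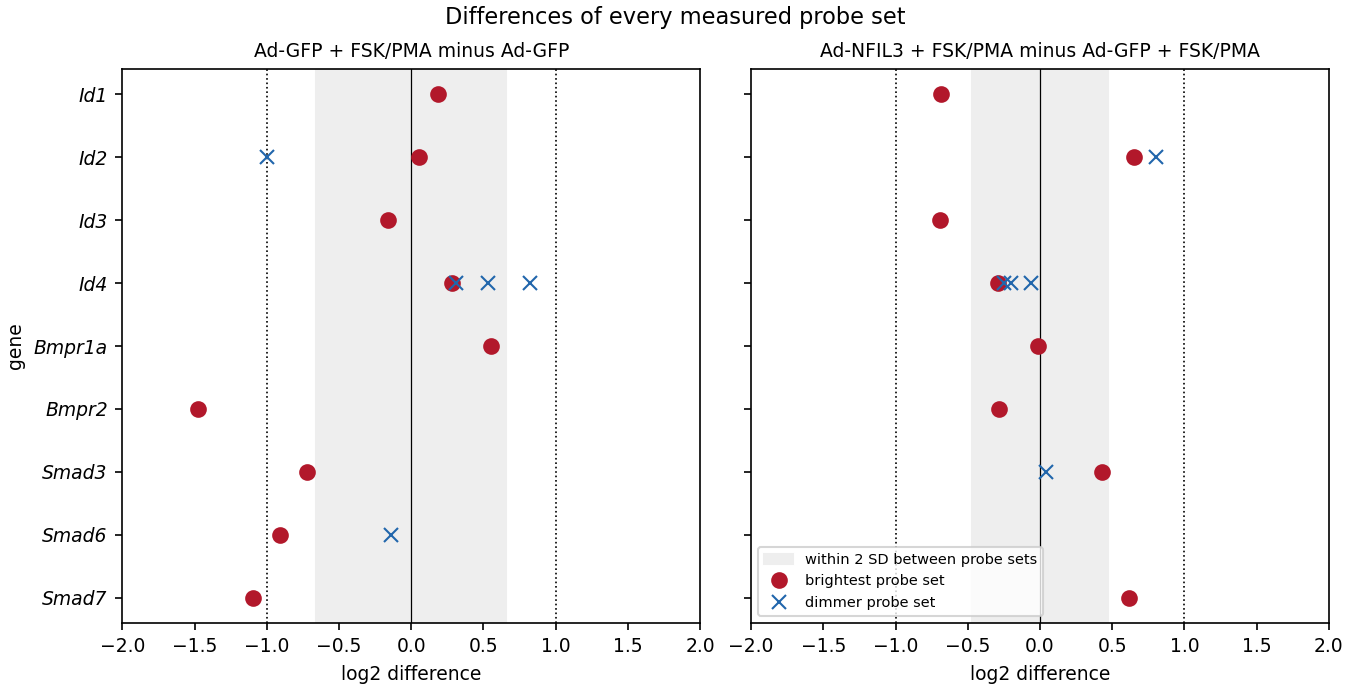
Log2 difference of every measured probe set of the 9 genes, with Ad-GFP and FSK/PMA minus Ad-GFP on the left and Ad-NFIL3 minus Ad-GFP under FSK/PMA on the right. Circles are the brightest probe set of a gene, crosses the dimmer ones, the shaded band is within 2 SD between probe sets, and dotted lines mark 2-fold. Bmpr2 and Smad7 lie past the 2-fold line on the left and no member does on the right, where Id1 and Id3 lie to the left of the band and Id2 and Smad7 to the right.

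Among all measured genes the members spread over both sides of the distribution. With FSK/PMA, 4 of 9 members had a positive difference and 5 a negative one. Bmpr2, Smad7 and Smad6 had 4.6%, 9.53% and 13.4% of genes as low or lower, the last pair as bounds, and Bmpr1a had 16.2% as high or higher. With NFIL3, 3 of 8 were positive and 5 negative. There Id2 had 5.03% of genes as high or higher and Smad7 5.93%, that of Smad7 as a bound. Bmpr1a had 43.5% as low or lower and so lay near the middle.

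**Figure D3:**
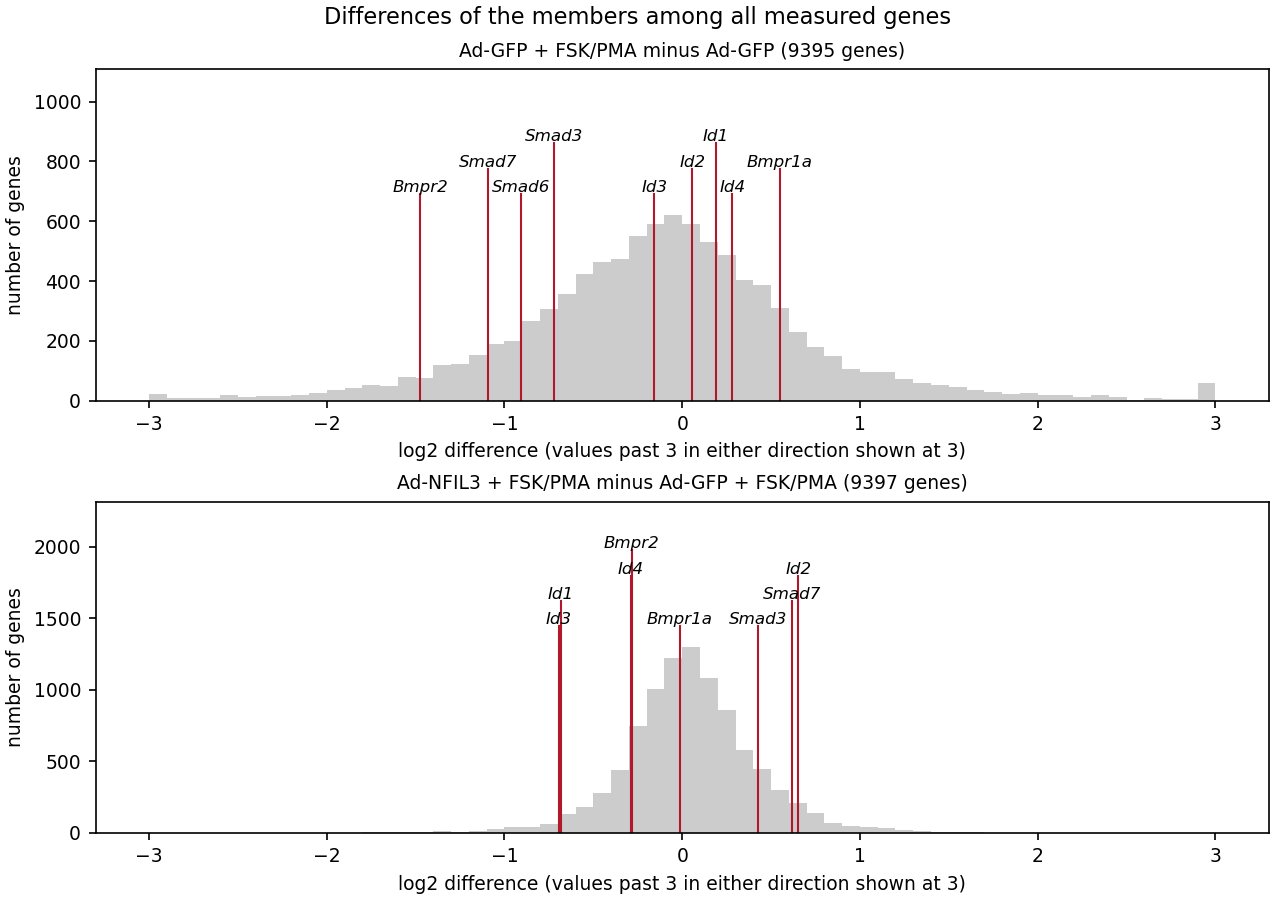
Number of genes by log2 difference, in steps of 0.1, for FSK/PMA (upper panel, 9395 genes) and for NFIL3 (lower panel, 9397 genes), with the members as labelled red lines. Bmpr2 at -1.48 is the lowest member above, and Id3 at -0.69 and Id1 at -0.68 are the lowest below.

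Read against the unstimulated Ad-GFP array, the Ad-NFIL3 array with FSK/PMA had 1 of 9 members at least 2-fold lower and 0 higher, where 9.05% of 9647 genes were at least 2-fold lower and 6.52% at least 2-fold higher. The lower member was Bmpr2, at 3.39-fold. Id3 was 1.8-fold lower and Id2 1.64-fold higher at its brighter probe set, both within 2-fold. The dimmer Id2 probe set was 1.15-fold lower, so the sign for Id2 depends on the probe set. Between these arrays Smad3 had a log2 difference of -0.29. Id4 had one of -0.01 at its brightest probe set and of 0.11, 0.47 and 0.57 at its dimmer ones. This comparison shares both its arrays with the other comparisons and adds no new data.

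Other genes of the pathway, from 7 lists of 74 genes of which 68 were on the array, held larger FSK/PMA differences than that of Bmpr2. Genes with folds given as "at least" passed the floor through 1 array only, so they could differ in no other direction. The counts of these lists stand beside 7.43% of all genes at least 2-fold higher and 11.4% lower with FSK/PMA. Of 7 measured ligand genes, 3 were at least 2-fold higher and 1 was lower. Tgfb1, the main TGF-beta ligand gene, had signals of 1154 with Ad-NFIL3 and FSK/PMA, 1094 with Ad-GFP and FSK/PMA, and 177 with Ad-GFP, which was 6.16-fold higher with the stimulus. Bmp2, a ligand that signals through BMPR1A and BMPR2, had signals of 1303 with Ad-NFIL3 and FSK/PMA, 1980 with Ad-GFP and FSK/PMA, and 6794 with Ad-GFP, and was 3.43-fold lower with the stimulus. A second Bmp2 probe set gave a log2 difference of -1.61 against -1.78. Bmp5 and Bmp6 were 3.25-fold and 2.05-fold higher, and dimmer probe sets gave at least 0.14 for Bmp5 and 0.70 for Bmp6. The oocyte ligand genes Bmp15 and Gdf9 were under the floor on all arrays.

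Among 9 other measured receptors and co-receptors, 2 were at least 2-fold higher and 2 lower with FSK/PMA. Bambi, a pseudoreceptor that dampens the signal, was 5.98-fold lower, with signals of 677 with Ad-NFIL3 and FSK/PMA, 435 with Ad-GFP and FSK/PMA, and 2599 with Ad-GFP. Amhr2, the type II receptor for anti-Müllerian hormone, was 2.26-fold lower. Acvr2a, an activin and BMP type II receptor, was 2.15-fold higher, so the type II receptor genes Acvr2a and Bmpr2 differed in opposite directions. Rgmb, a BMP co-receptor, was 2.23-fold higher, with a dimmer probe set at 0.42 on the log2 scale.

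Of the 5 other Smad genes, Smad1, Smad2, Smad4 and Smad5 were within 2-fold with FSK/PMA, and Smad9, a receptor-regulated Smad of the BMP branch, was 4.14-fold lower. Smad9 had signals of 373 with Ad-NFIL3 and FSK/PMA, 365 with Ad-GFP and FSK/PMA, and 1511 with Ad-GFP. Extracellular antagonists were higher in 1 and lower in 2 of 6 measured cases. Sostdc1, a BMP and Wnt antagonist, was 10.1-fold lower, with signals of 274 with Ad-NFIL3 and FSK/PMA, 322 with Ad-GFP and FSK/PMA, and 3246 with Ad-GFP. Fst, follistatin, was 3.78-fold lower and its other probe set had a log2 difference of -1.99. Bmper, a BMP-binding protein, was at least 4.16-fold higher.

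Of 13 intracellular Smad regulators, 1 was higher, 1 lower and 11 within 2-fold with FSK/PMA, near the shares of all genes (7.43% higher and 11.4% lower). Pmepa1, a TGF-beta target that feeds back on Smads, was 4.37-fold higher, and Tgif2, a Smad corepressor, was 2.37-fold lower. Of the 3 E protein genes, whose products Id proteins bind, Tcf4 was 2.92-fold lower, and both its probe sets gave log2 differences near each other, -1.55 at each. Tcf3 and Tcf12 had differences of -0.28 and -0.01. Among 5 other measured target genes, 3 were lower and 1 higher. Hey1 and Atoh8 were above the floor on the Ad-GFP array alone, so they could only be lower. Atoh8 was at least 1.84-fold lower and was not counted. Ccn2, a matricellular protein gene, was 2.5-fold lower, Hey1, a helix-loop-helix repressor gene, at least 2.56-fold lower, and Tgfbi 2.4-fold lower, while Junb, an AP-1 gene, was 3.36-fold higher.

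In the NFIL3 comparison 0 genes of these 7 lists were 2-fold different in either direction, where 1.34% of all genes were higher and 0.958% lower. Of the ligand genes above the floor on both arrays, Bmp2 had the largest difference, -0.60 on the log2 scale, with -0.66 at its second probe set. Bambi had 0.64 and, of the Smad regulators, Tob1, an antiproliferative protein that also restrains BMP signals, had 0.74. Smad1 had -0.32, the antagonist gene Twsg1 -0.31, Tcf4 0.08 with 0.61 at a dimmer probe set, and Ccn2 -0.83. Smad5 had 0.03 at its brightest probe set, while its dimmer ones disagreed in sign, with -0.77, 0.71 and -0.54. Of the list genes above the floor on both arrays, Ccn2 had the largest NFIL3 difference, at signals of 1964 with Ad-NFIL3 and FSK/PMA, 3494 with Ad-GFP and FSK/PMA, and 8738 with Ad-GFP.

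**Figure D4:**
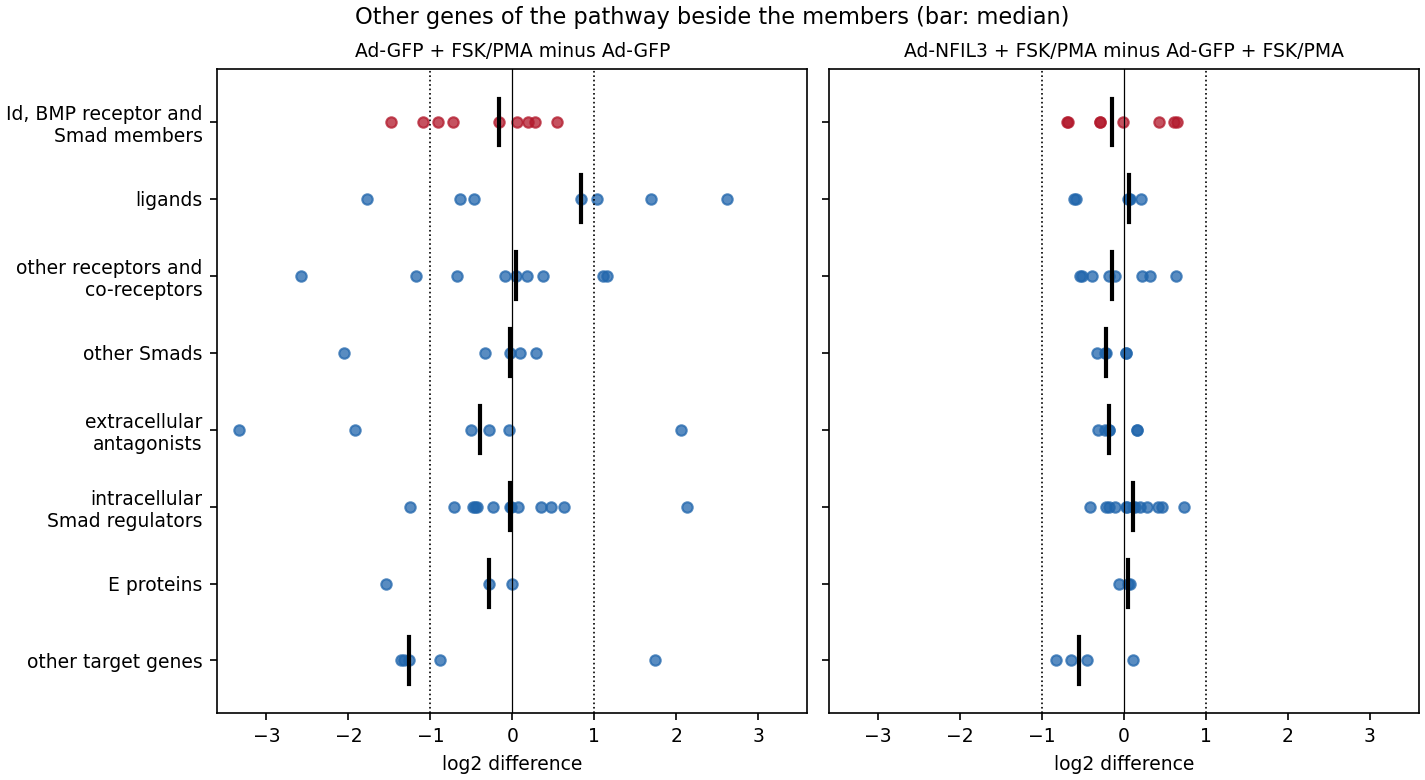
Log2 differences of the members (red) and of the measured genes of 7 pathway lists (blue), with FSK/PMA on the left and NFIL3 on the right. Each point is a gene at its brightest probe set, black bars are medians and dotted lines mark 2-fold. The FSK/PMA values run from -3.33 (Sostdc1) to 2.62 (Tgfb1), and the NFIL3 values all lie within 2-fold.

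Markers of the cell types that the cultures could hold were read in the same way. The summed signal of 9 granulosa markers was 52295 with Ad-NFIL3 and FSK/PMA, 84558 with Ad-GFP and FSK/PMA, and 115986 with Ad-GFP. Gja1, Inha and Inhba were the brightest of the 9 on each array and made up most of the sum. With FSK/PMA, 5 of the 9 were at least 2-fold lower and 1 higher, beside 11.4% and 7.43% of all genes. The higher one was Cyp19a1, at least 19.8-fold, which was under the floor with Ad-GFP and so could only be higher. With NFIL3, 3 of the 9 were at least 2-fold lower and 0 higher, beside 0.958% and 1.34% of all genes: Inhba (2.57-fold), Cyp19a1 (2.51-fold) and Lhcgr (2.15-fold). Theca and stroma markers, 6 of 8 above the floor on some array, summed to 1484 with Ad-NFIL3 and FSK/PMA, 1024 with Ad-GFP and FSK/PMA, and 1233 with Ad-GFP. Of these, Dcn was 2.45-fold higher with NFIL3, and the theca enzyme gene Cyp17a1 was under the floor on all arrays. Leukocyte markers, 4 of 6 above the floor, summed to 3164 with Ad-NFIL3 and FSK/PMA, 2862 with Ad-GFP and FSK/PMA, and 2189 with Ad-GFP. Of these, Cd14 was 2.46-fold higher with FSK/PMA, at 1488 with Ad-GFP and FSK/PMA and 606 with Ad-GFP. The other 3 measured ones were within 2-fold, with Cd68 1.36-fold higher and Lyz2 1.44-fold lower. The pan-leukocyte gene Ptprc was under the floor on all arrays. Endothelial markers, 2 of 4 on the array above the floor, summed to 514 with Ad-NFIL3 and FSK/PMA, 476 with Ad-GFP and FSK/PMA, and 385 with Ad-GFP. Pecam1 was under it on all arrays. Only Zp2 of 5 oocyte markers was above it, and the list summed to 430 with Ad-NFIL3 and FSK/PMA, 575 with Ad-GFP and FSK/PMA, and 967 with Ad-GFP. Red cell markers, 2 of 2, summed to 15713 with Ad-NFIL3 and FSK/PMA, 18366 with Ad-GFP and FSK/PMA, and 19937 with Ad-GFP. Hbb made up most of each sum, and Alas2 had signals of 338, 361 and 494 in the same order of arrays. The part of these shifts in the differences of Bmpr2, the Smads and the Id genes was not tested.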

How the data were processed

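Gene expression was measured on 3 arrays, 1 per group. The authors deposited MAS5 signals, a linear intensity for each probe set, per the submitters' processing notes, which name no version. Each column had a 2% trimmed mean of about 500.2, and the arrays were brought to the mean of these. The table held 31099 probe sets; the platform annotation names 1 gene for 20832, several for 436 and none for 9831. Symbols were updated by Entrez ID with the RefSeq table of assembly GRCr8 (20764 matched). Log2 was taken after raising signals under 126 to that floor. A gene was read at its probe set of highest mean signal and counted as measured when 1 of the arrays compared was above the floor. A fold with 1 array under the floor is a bound. A 2-fold difference was counted; 1 array per group allows no test, and so few arrays limit the precision. Members, lists and motifs were chosen with earlier results of these data known. All members with every probe set, Nfil3, and of each list the genes past 2-fold or, if none, the 1 with the largest difference are named. Bmp15, Gdf9 and Atoh8, and markers, are named beside them. The code was tested on simulated data. Alternatives changed the floor, scaling, probe set choice and fold limit. Python 3.11.15, pandas 2.3.3, R 4.3.3 and limma 3.58.1 (normalisation only) were used. Gene coordinates are not given apart from the RefSeq promoters.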

Additional observations from a re-analysis of the deposited data

How the results depend on the processing

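Of 52 alternative values for the counts and medians, 43 stayed within 1.5 times the count or within 1 SD between probe sets of the median, and 9 did not. With a limit of 1.5-fold in place of 2-fold, 4 members were lower with FSK/PMA (24.0% of all genes), and with NFIL3 2 were higher (6.81%) and 2 lower (4.25%). A floor at the 75th percentile of signals and cyclic loess each left 1 member lower with FSK/PMA, Bmpr2, beside 6.66% and 9.2% of all genes. Without a floor, 1 member, Smad6, was higher with NFIL3, from signals under the floor on both arrays, in a setting where 10.1% of all genes were higher. Without probe sets ending _s_at, _x_at or _a_at, which leaves out Id1 and Id3, the median was -0.72 with FSK/PMA and 0.21 with NFIL3; these medians rest on fewer genes. With arrays scaled to their median the NFIL3 median was -0.39; this scaling moved the median of all genes by -0.23 in that comparison and by 0.13 in the FSK/PMA comparison. Quantile normalisation gave 0.973% higher and 1.2% lower with NFIL3, and cyclic loess 0.905% higher and 1.2% lower. Of 129 alternative values for single members, 116 stayed within 1 SD and 0 of the values past 2-fold changed sign. Bmpr1a with NFIL3 and Id2 with FSK/PMA, both under 2-fold, did change sign, with values between -0.25 and 0.01 for Bmpr1a and between -0.47 and 0.19 for Id2. The cause was not tested. No paired analysis was possible because each group had 1 array. Signals under the floor limit Smad6, Smad7 and the second Bmpr2 probe set.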
